A study of Mus musculus with 3 samples.

Results

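*Apba3* (ENSMUSG00000004931), *Kdm8* (ENSMUSG00000030752), *Aldh4a1* (ENSMUSG00000028737), *Plekha8* (ENSMUSG00000005225) and *Dpp7* (ENSMUSG00000026958) are 5 of the 30212 genes in the exome files. They were chosen on RNA: in B cells of at least 1 of the single-clone animals E6.43 and E15.10, the study's RNA-seq gave them an extreme imbalance between alleles. *Apba3* RNA was nearly all paternal in both animals, *Kdm8* RNA was nearly all paternal in E15.10, *Plekha8* RNA was mostly paternal in E15.10, *Dpp7* RNA was mostly paternal in E6.43, and *Aldh4a1* RNA was mostly maternal in E15.10. These RNA values are a description of how the genes were picked and nothing is tested on them here. The exome reads of the same animals entered the choice as well. The study dropped every gene that its exome data marked as LOH (defined below) in any sample, so a listed gene had already passed that filter. The exome values below describe how near to balance the DNA of the listed genes was.

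A cell can express a gene from 1 parental copy while it keeps both copies. It can also lose a copy, by deletion or by replacement with the other parent's sequence (loss of heterozygosity, LOH), and RNA from that locus is then monoallelic as well. In F1 animals of distant parents, each read that covers a SNP names its parental chromosome, so DNA and RNA can be set side by side gene by gene. A single hematopoietic stem cell (HSC) that refills the blood hands any loss it carries to all of its progeny.

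Exome DNA came from 3 recipient animals with 1 library each. All donor HSCs were from F1 females of a C57BL/6 (B6; C57BL/6J in the methods) mother, which gave them the Ly5.2 marker, and a CAST/EiJ (CAST) father. All recipients were sublethally irradiated F1 females of CAST and B6 as well, marked by Ly5.1 from the B6 side. Donor cells were sorted by these markers. Host cells that passed the sort would add reads of both alleles, and their share in the exome libraries was not measured here. E6.2, the polyclonal animal, received 50 HSCs. The other two animals received 1 HSC each and are monoclonal. Donor 6 supplied E6.2 and E6.43, and donor 15 supplied E15.10. The DNA of E6.2 was from 58000 B220+IgM+ B cells, placed in the spleen by the labels and in the bone marrow by the methods. The DNA of the monoclonal animals was from CD4+CD8- thymocytes, 250000 cells of E6.43 and 177000 cells of E15.10. Thus the RNA that chose the genes and the DNA of the clones are from different cell types of the same animals, clonality cannot be told apart from cell type in the DNA, and a test on the reads of these libraries compares libraries and not conditions. No age is given in the labels, while the methods give an upper age for donors and an age range for recipients. DNA reads hold no expression markers against which the sorted cell types could be checked.

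Allelic imbalance (AI) is the maternal share of the allelic counts, with 0 for paternal reads alone and 1 for maternal reads alone. Read counts at SNPs totalled 19471576 (E6.2), 13036005 (E6.43) and 10863972 (E15.10). The median AI of autosomal genes with at least 10 counts was 0.538, 0.538 and 0.537, so the level against which the 5 genes are read lies slightly above 0.5. Intervals are Wilson intervals at 95% confidence. They cover counting error only, since reads were counted without molecular identifiers, and there is no replicate library of any animal. A gene sum counts a read pair at every SNP it spans, so for tests a gene was reduced to SNPs at least 300 bp apart, which a single captured fragment does not join. Below, "spaced" refers to this set.

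The SNPs on which the values rest are shown here on the GRCm38 plus strand, 5′ to 3′, with the bases that carry a measured SNP in capitals. Each window holds the best covered SNP, or the SNP group that the values below turn on, of its gene.
*Apba3* exon 6, chr10:81271414-81271473: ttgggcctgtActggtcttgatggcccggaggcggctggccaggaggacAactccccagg
*Apba3* exon 8, chr10:81272211-81272233: aggcctgggcGtCgcgctagttg
*Kdm8* exon 2, chr7:125452289-125452587: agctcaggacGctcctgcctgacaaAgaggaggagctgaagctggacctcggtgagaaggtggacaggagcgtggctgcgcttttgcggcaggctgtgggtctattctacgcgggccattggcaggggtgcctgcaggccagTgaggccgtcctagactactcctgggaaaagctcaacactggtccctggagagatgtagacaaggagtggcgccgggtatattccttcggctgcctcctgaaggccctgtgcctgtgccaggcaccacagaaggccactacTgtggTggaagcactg
*Kdm8* exon 3, chr7:125455230-125455250: accactggccGtgcatgaaga
*Kdm8* exon 8, chr7:125461193-125461213: actggcattaTgtgcgctccc
*Aldh4a1*, exon of a transcript other than the principal one, chr4:139635571-139635591: tctgtcaggcTgtcagactcc
*Plekha8* exon 7, chr6:54622120-54622230: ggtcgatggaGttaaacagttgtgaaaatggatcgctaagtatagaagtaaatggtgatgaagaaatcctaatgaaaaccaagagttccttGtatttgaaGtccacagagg
*Dpp7* exon 9, chr2:25353610-25353684: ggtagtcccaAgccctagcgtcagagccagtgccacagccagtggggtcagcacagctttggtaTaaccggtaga
*Dpp7* exon 3, chr2:25355887-25355907: gaccagatatCcccctcattc

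Reads of both parental copies were present, in near-equal numbers, for all 5 genes in the DNA of all 3 libraries. Over the 15 values (5 genes in 3 libraries) AI ran from 0.443 to 0.573, and the interval bounds ran from 0.403 to 0.635. The methods of the study read an AI under 0.25 or over 0.75 as LOH. None of the 5 genes was in that range in any library. This was set in advance, since the study dropped such genes before it listed any. Of all autosomal genes, 5.32% (E6.2), 5.56% (E6.43) and 5.24% (E15.10) were in the range. The shares over all autosomal genes or SNPs, here and below, include those that the filter dropped. They are therefore not a like background for the 5 genes. No gene of the 5 entered an AI under 0.4 or over 0.6 either. Spaced SNPs gave 0.457 to 0.574, with interval bounds from 0.399 to 0.629.

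**Figure D1:**
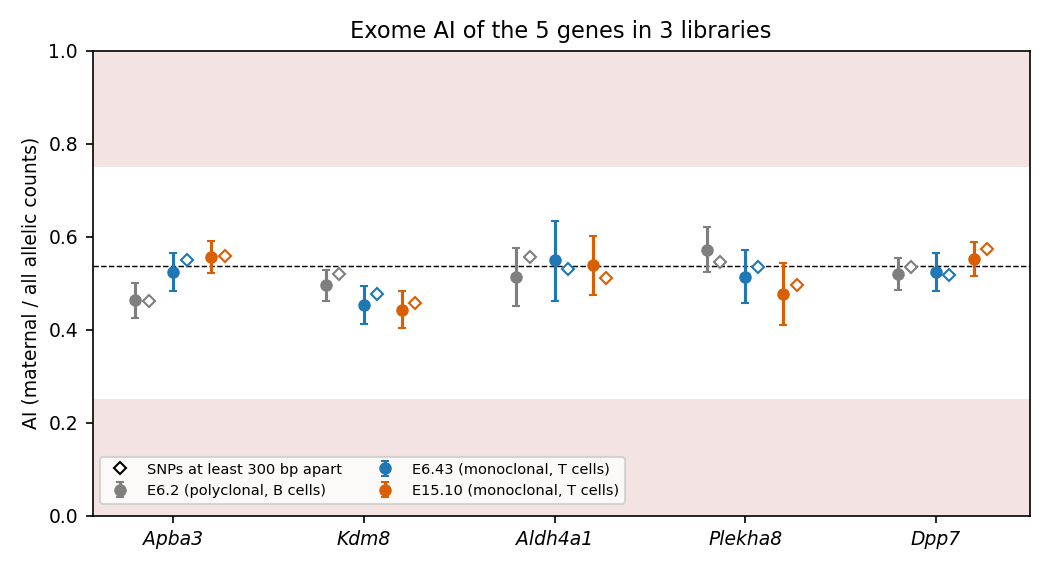
AI of the 5 genes in the 3 exome libraries, with summed counts as filled circles, 95% Wilson intervals as bars and spaced SNPs as open diamonds. The shaded areas are the LOH range and the dashed line is the median of autosomal genes; all 15 circles lie between 0.443 and 0.573.

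*Apba3* encodes an adaptor of the X11/Mint family that binds the amyloid precursor protein. The gene spans 6.287 kb on the plus strand of chromosome 10 (chr10:81266960-81273246), and all of its counts fell on 10 SNPs in coding sequence. It was the gene whose RNA was almost wholly paternal in both clones. E6.2 held 312 maternal counts among 674 (AI 0.463, interval 0.426 to 0.501), E6.43 held 301 among 574 (0.524, 0.484 to 0.565) and E15.10 held 442 among 795 (0.556, 0.521 to 0.590). The clones, with paternal RNA, had a higher maternal share of DNA reads than the polyclonal animal, a difference tested below. The lower bound of the spaced interval was 0.491 in E6.43 and 0.510 in E15.10. These bounds can be turned into a share of cells without the maternal copy. With loss by deletion, and all other cells at the AI of the median gene, they would correspond to 16.1% and 8.86%. Loss by replacement with the paternal sequence would give lower percentages from the same bounds. An AI of 0 would be required for 100% of cells.

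The SNPs of *Apba3* gave the same picture at single sites. Those with at least 20 counts ran from 0.468 to 0.658 for E15.10 (10 SNPs), from 0.368 to 0.607 for E6.43 (9 SNPs) and from 0.351 to 0.524 for E6.2 (10 SNPs). The most counts over the 3 libraries lay on the first of the exon 6 SNPs shown above (chr10:81271424), where E6.2 had 50 maternal of 104, E6.43 had 49 of 98, and E15.10 had 71 of 120. At chr10:81271268 in exon 5, with as many counts, AI was 0.488 (59 of 121), 0.607 (51 of 84) and 0.658 (77 of 117). The exon 8 SNPs lie 2 bp apart and repeat each other, with 16 of 38 at both in E6.2, and 23 of 40 and 24 of 41 in E6.43. Such a pair is 1 measurement.

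*Kdm8* encodes a JmjC-domain hydroxylase, also called JMJD5. It lies at chr7:125444676-125462269 on the plus strand and spans 17.594 kb, and coding SNPs held 97.6% of its counts. E6.2 held 420 maternal counts among 847 (AI 0.496, interval 0.462 to 0.529), E6.43 held 262 among 578 (0.453, 0.413 to 0.494) and E15.10 held 255 among 576 (0.443, 0.403 to 0.484). Both clones were on the paternal side of 0.5, and E15.10, the clone with nearly all-paternal RNA, held the lowest AI of the 15. The spaced value of E15.10 was 0.457 (0.399 to 0.517), and its lower bound would correspond to 41.9% of cells without the maternal copy under the same arithmetic. This is the loosest of the limits for the genes and clones with extreme RNA.

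Exon 2 of *Kdm8* held 6 SNPs within 400 bp, of which 5 are in the sequence above. In E6.43 their AI rose along the exon from 0.324 (12 of 37) and 0.326 (14 of 43) at the first pair, through 0.403 (27 of 67), to 0.494 (43 of 87) at both of the last SNPs shown. In E15.10 the same 5 SNPs lay between 0.411 and 0.447, and in E6.2 between 0.441 and 0.514. The SNPs of exons 3 and 8 differed from each other in E6.43, at 0.630 (46 of 73) and 0.376 (47 of 125), with intervals of 0.515 to 0.732 and 0.296 to 0.463 that do not meet. In E15.10 these SNPs had 41 of 90 (0.456) and 43 of 91 (0.473), and in E6.2 they had 65 of 129 (0.504) and 79 of 149 (0.530). The 8 SNPs with at least 20 counts thus lay between 0.411 and 0.473 in E15.10 and between 0.324 and 0.630 in E6.43.

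*Aldh4a1* encodes the mitochondrial dehydrogenase that completes the breakdown of proline to glutamate. It lies at chr4:139622866-139649690 on the plus strand and spans 26.825 kb. Of its 49 listed SNPs, 0 were in the coding sequence of the principal transcript, and the counts fell on exons of other transcripts (61.1%), the 5′ UTR (20.4%) and the 3′ UTR (18.5%). Its locus is overlapped by *Gm21969* on the same strand. No SNP was counted for both, but the gene models that the study describes leave out regions shared by several genes. E6.2 held 126 maternal counts among 245 (AI 0.514, interval 0.452 to 0.576), E6.43 held 67 among 122 (0.549, 0.461 to 0.635) and E15.10 held 125 among 232 (0.539, 0.475 to 0.602). These were the fewest counts of the 5 genes in E6.2 and E6.43, and the intervals of all 3 libraries hold both 0.5 and the library median. In E15.10, with mostly maternal RNA, the upper spaced bound of 0.590 would correspond to 20.9% of cells without the paternal copy.

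The best covered SNP of *Aldh4a1*, shown above, was maternal in 61 of 98 counts for E6.2 (0.622), 29 of 51 for E6.43 (0.569) and 34 of 72 for E15.10 (0.472). The 5 SNPs of the 5′ UTR lie within 105 bp. Their summed counts were mostly paternal in E6.2, with 15 of 58 (AI 0.259, interval 0.163 to 0.384). The sums were 25 of 49 (0.510, 0.375 to 0.644) in E15.10 and 11 of 15 (0.733, 0.480 to 0.891) in E6.43, of the same donor as E6.2. Such sums count read pairs again at SNPs that share them, which makes these intervals too narrow. The SNP at chr4:139623083 alone had 5 of 19 maternal counts in E6.2 (0.263, 0.118 to 0.488). It had 5 of 11 in E15.10 (0.455, 0.213 to 0.720) and 4 of 6 in E6.43 (0.667). At this SNP the intervals of all libraries overlap, and a difference between libraries was not tested. None of the 5′ UTR SNPs alone reached 20 counts. Without the best covered SNP, the AI of the gene in E6.2 was 0.442 instead of 0.514.

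*Plekha8* encodes FAPP2, which binds a Golgi phosphoinositide and carries glycolipids between membranes. It lies at chr6:54595111-54645839 on the plus strand and spans 50.729 kb. Its 32 listed SNPs of the 3′ UTR had 0 counts in all libraries, and 7 coding SNPs in exons 7, 8 and 11 held 99.8% of the counts. E6.2 held 229 maternal counts among 400 (AI 0.573, interval 0.524 to 0.620), E6.43 held 150 among 292 (0.514, 0.457 to 0.570) and E15.10 held 101 among 212 (0.476, 0.410 to 0.543). The order ran from the polyclonal animal down to the clone with paternal RNA, but the intervals of all libraries overlap, those at the ends of that order included. In E15.10 the lower spaced bound, 0.404 from 111 counts, would correspond to 40.5% of cells without the maternal copy.

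The exons of *Plekha8* did not behave alike. In E6.2, the exon 7 SNPs shown above were maternal in 36 of 53 (0.679), 48 of 62 (0.774) and 48 of 63 (0.762) counts. The last 2 of these were the only SNPs with at least 20 counts, of all 5 genes, outside 0.25 to 0.75, and they lie 9 bp apart. In E6.43, from the same donor, the 3 SNPs had 8 of 13 (0.615), 17 of 25 (0.680) and 22 of 30 (0.733). In E15.10 they had 7 of 17 (0.412), 15 of 32 (0.469) and 15 of 31 (0.484). Summed, exon 7 gave E6.2 an AI of 0.742 (0.673 to 0.800), E6.43 one of 0.691 (0.574 to 0.788) and E15.10 one of 0.463 (0.357 to 0.571). Exon 8, whose SNP lies 1856 bp downstream, gave 0.442 (46 of 104), 0.557 (49 of 88) and 0.5 (30 of 60), and exon 11 gave 0.432, 0.4 and 0.479. The maternal excess was thus within 1 exon of both donor 6 libraries. The sums count read pairs again at SNPs that share them, which makes these intervals too narrow. With only the best covered exon 7 SNP of each library, the interval of E15.10 (0.309 to 0.636) lay below that of E6.2 (0.644 to 0.850) and overlapped that of E6.43 (0.556 to 0.858). The comparison of exon 7 was chosen after its values were seen and was not tested.

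*Dpp7* encodes a vesicular dipeptidyl peptidase known for its role in quiescent lymphocytes. It lies on the minus strand of chromosome 2 (chr2:25352276-25356359) and is the shortest of the 5 at 4.084 kb. Coding SNPs held 76.2% of its counts, the 3′ UTR 17.1% and exons of other transcripts 6.68%. E6.2 held 420 maternal counts among 809 (AI 0.519, interval 0.485 to 0.553), E6.43 held 299 among 571 (0.524, 0.483 to 0.564) and E15.10 held 396 among 716 (0.553, 0.516 to 0.589). The 3 intervals overlap. In E6.43, with mostly paternal RNA, the lower spaced bound of 0.462 would correspond to 25.2% of cells without the maternal copy.

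The best covered SNP of *Dpp7* and of all 5 genes, in exon 3, was maternal in 96 of 169 counts for E6.2 (0.568), 50 of 107 for E6.43 (0.467) and 72 of 128 for E15.10 (0.563). The exon 9 SNPs, 54 bp apart, gave E6.2 75 of 132 and 67 of 124, E6.43 39 of 86 and 41 of 95, and E15.10 76 of 121 and 59 of 107. In E6.43 these were on the paternal side (0.453 and 0.432). The 3′ UTR of the same library was on the maternal side, at 0.660 (33 maternal of 50) and 0.651 (41 of 63). The median over the 7 SNPs of E6.43 was 0.6, against 0.524 from the summed counts, so the summary chosen moves this gene by more than its counting interval.

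Over the 5 genes, 36 (E6.2), 32 (E6.43) and 36 (E15.10) SNPs reached 20 counts. Outside 0.25 to 0.75 were 2, 0 and 0 of them, all in *Plekha8* exon 7. Over all autosomal SNPs with as many counts the share was 6.36%, 6.84% and 5.77%. Across the 31 SNPs that reached 20 counts in all 3 libraries, the AI of E6.43 and E6.2 had Pearson r = 0.43 (Spearman 0.23), that of E15.10 and E6.2 had r = -0.01 (0.07) and that of E15.10 and E6.43 had r = 0.15 (0.20). Over 16 SNPs at least 300 bp apart r was 0.26, -0.16 and -0.13 (Spearman -0.12, -0.16 and -0.24) in the same order, and over the 69712 such autosomal SNPs it was 0.57, 0.36 and 0.33 (0.29, 0.25 and 0.23). These SNPs share genes and reads, and the values are descriptions.

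**Figure D2:**
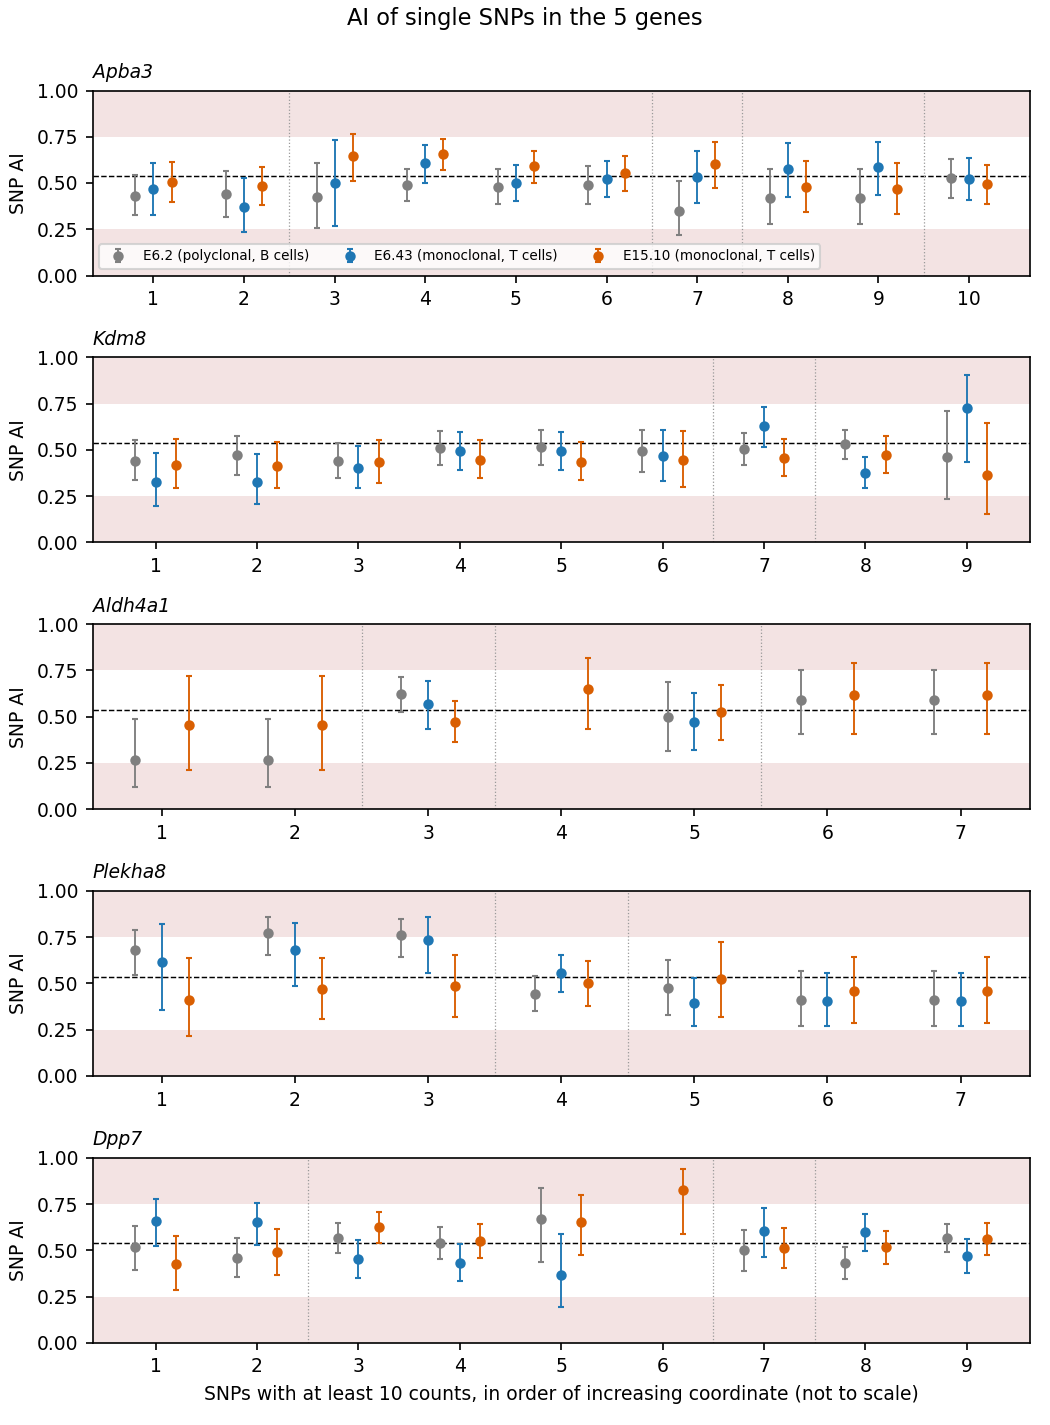
AI of each SNP with at least 10 counts in the 5 genes, with 95% Wilson intervals; SNPs are numbered by coordinate, dotted lines mark gaps of at least 300 bp, and the shaded areas and dashed line are as for the genes. In *Plekha8*, the first 3 SNPs (exon 7) are high in E6.2 and E6.43 and near 0.5 in E15.10, and only 1 SNP elsewhere, in *Dpp7* (14 of 17 counts in E15.10), has its AI outside 0.25 to 0.75.

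Spacing decides how many independent reads these sums hold. In neighbouring SNPs up to 10 bp apart, 9 of 16 pairs (a pair counted once per library, both SNPs with at least 10 counts) had identical maternal and total counts. The median difference in AI between the SNPs of a pair was 0 in this class, 0.048 in the 20 pairs at 11 to 100 bp, 0.066 in the 27 pairs at 101 to 299 bp and 0.093 in the 32 pairs farther apart. Total counts differed by a median of 14.3%, 29.6% and 45.1% in the last 3 classes. The spaced sets kept 98 to 475 counts a gene and library, of 122 to 847.

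The 5 genes were then tested against the median gene. In exact binomial tests of spaced counts, with Benjamini-Hochberg adjustment over all autosomal genes tested, E6.2 had 1 call of 5 and both clones had 0, where 17.8% (E6.2), 15.6% (E6.43) and 13.2% (E15.10) of all genes were called. The gene called was *Apba3* in the polyclonal library (spaced AI 0.462, exact binomial test, adjusted p = 0.0411). *Apba3* in the clones had adjusted p = 0.836 (E6.43) and 0.587 (E15.10) in the same exact tests. At an unadjusted p under 0.05 the exact tests gave 1, 0 and 1 genes, the last being *Kdm8* in E15.10 (p = 0.0144, adjusted p = 0.0858). The exact test's call of *Apba3* ended with SNPs at least 600 bp apart (adjusted p = 0.151) and with overdispersion between genes (adjusted p = 0.703). The exact test of summed counts, in which read pairs are counted repeatedly, called *Kdm8* in every library (E6.2 adjusted p = 0.0461, E6.43 adjusted p = 0.000288, E15.10 adjusted p = 5.96e-05).

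Between libraries, Fisher's exact test of spaced counts called 0 of 5 genes in each of the 3 comparisons. Of all autosomal genes, 0.664% were called between E6.43 and E6.2, 4.75% between E15.10 and E6.2 and 4.77% between E15.10 and E6.43. The members with an unadjusted p under 0.05 numbered 1, 1 and 0, and both were *Apba3*. Its spaced AI was higher by 0.087 in E6.43 than in E6.2 (interval of the difference 0.0089 to 0.163, Fisher's exact p = 0.0324, adjusted p = 0.329). It was higher by 0.097 in E15.10 than in E6.2 (0.025 to 0.168, exact p = 0.00836, adjusted p = 0.111), and with summed counts this difference passed (adjusted p = 0.00465). For *Kdm8* the difference of E15.10 from E6.2 was -0.062 (-0.138 to 0.016). For *Aldh4a1* it was -0.046 (-0.154 to 0.064) and for *Plekha8* -0.050 (-0.163 to 0.064). For *Dpp7*, E6.43 differed from E6.2 by -0.017 (-0.088 to 0.054). Over all 15 differences the bounds ran from -0.163 to 0.168, and differences within a gene's own interval could not be told from none at this depth.

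**Figure D3:**
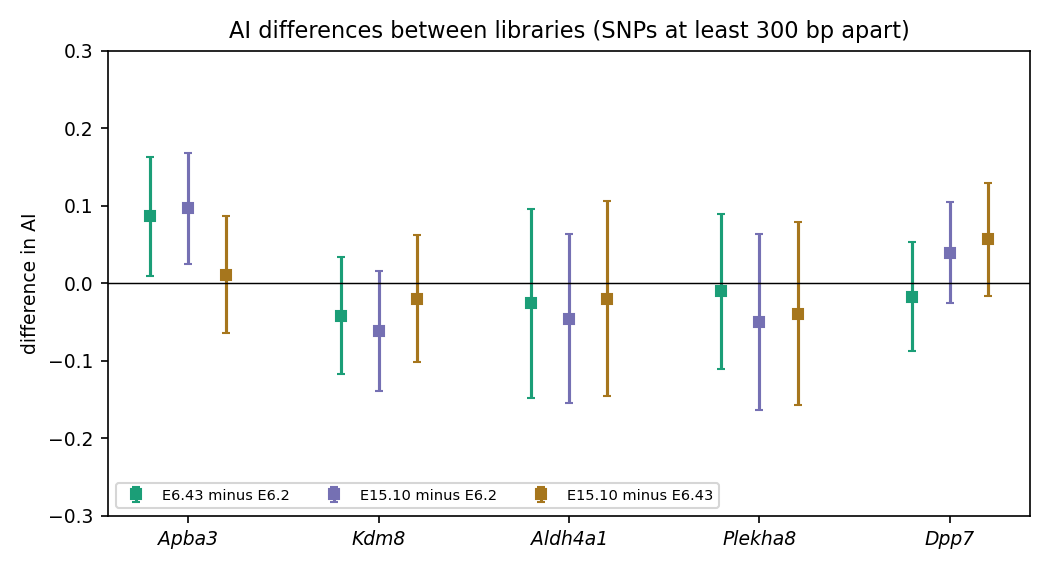
Differences in spaced AI between libraries for the 5 genes, with 95% intervals (Newcombe's method from the Wilson bounds). Of the 15 intervals 13 hold 0, and the other 2 belong to *Apba3* in the clones against E6.2.

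The genes beside each member were read as well. Of the 10 nearest genes of each member with at least 50 counts (5 on either side, 50 in all), 0 were in the LOH range in each library. Sides were taken by coordinate, and some of these genes overlap the member. *Mir3057* lies within *Apba3*, *Gm21969* spans *Aldh4a1*, and *Fkbp14* overlaps *Plekha8*. The windows spanned 154 kb (*Dpp7*) to 2412 kb (*Kdm8*). A change confined to 1 member would be seen at most in the genes that overlap it. The median AI of the 50 genes was 0.529 (E6.2), 0.532 (E6.43) and 0.528 (E15.10). Beside *Apba3*, AI ran from 0.413 (*Matk*) to 0.640 (*Tjp3*, which overlaps its 3′ end) in E6.2, from 0.434 (*Atcayos*) to 0.591 (*Nmrk2*) in E6.43 and from 0.439 (*Atcayos*) to 0.644 (*Tjp3*) in E15.10. Beside *Kdm8* the range was 0.440 to 0.612, 0.423 to 0.577 and 0.489 to 0.614. Beside *Aldh4a1* the lowest value was 0.376, of the pseudogene *Ccnd3-ps* in E6.2, and the highest 0.633, of *Gm21969* in the same library.

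The window of *Plekha8* held the most maternal neighbours. *Ggct* had 0.729 (E6.2), 0.75 (E6.43) and 0.676 (E15.10), and *Znrf2* had 0.620, 0.677 and 0.733. Both lie at higher coordinates than *Plekha8* and were on the maternal side in every library, unlike its exon 7, which was not in E15.10. The window of *Dpp7* held *Sapcd2*, where E6.2 had 0.5 (136 of 272), E6.43 had 0.351 (67 of 191) and E15.10 had 0.596 (202 of 339). *Dpp7* itself did not follow, at 0.519, 0.524 and 0.553. With the minimum lowered to 10 counts, *Gipc3* near *Apba3* (0.222) and *Iffo2* near *Aldh4a1* (0.0833) entered the LOH range in E6.43.

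**Figure D4:**
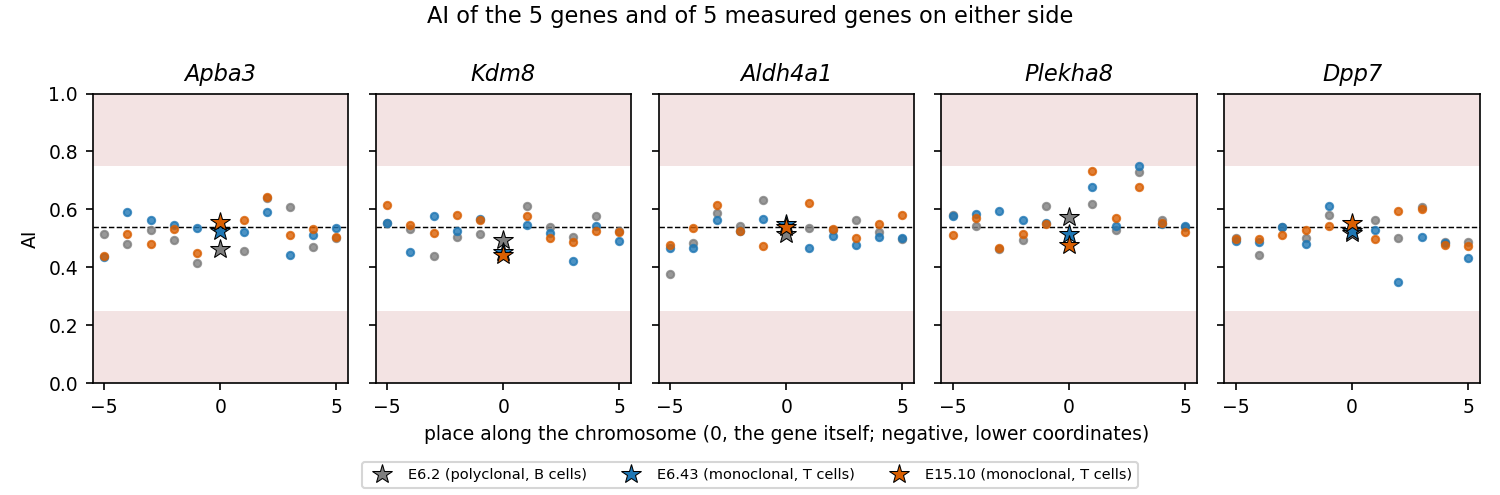
AI of the 5 genes (stars, at place 0) and of the 5 measured genes on either side (circles) in the 3 libraries, ordered by coordinate and not drawn to distance. No circle is in the shaded LOH range; the highest, at 0.75, is *Ggct* beside *Plekha8* in E6.43.

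Other genes of the same families or pathways were measured as well, 61 in each library (from fixed lists of the APBA adaptors, JmjC hydroxylases with the demethylase *Kdm1a*, aldehyde dehydrogenases with proline enzymes, PLEKHA and lipid transfer proteins, and dipeptidyl peptidases). Their median AI was 0.546, 0.543 and 0.541. In the LOH range were 1, 1 and 0 of them. The gene was *Prodh2* on chromosome 7, which encodes a proline/hydroxyproline dehydrogenase that acts upstream of *Aldh4a1*. E6.2 held 7 maternal counts among its 108 (0.0648), and E6.43 held 0 among 90, which allows a share of up to 3.33%, but E15.10 held 63 among 123 (0.512). The methods of the study report a large deletion shared by all E6 samples, without its position. Whether *Prodh2* lies within that deletion was not tested. *Prodh2* starts at 30493622 and so lies far from *Kdm8* on the same chromosome. *Aldh4a1*, in the same list of proline enzymes, was at 0.514 and 0.549 in the E6 libraries. The APBA adaptors *Apba1* and *Apba2* lay between 0.4996 and 0.550 in all libraries. The JmjC list ran from 0.330 (*Kdm2a* in E6.2) to 0.681 (*Riox2* in E15.10), the lipid transfer list from 0.464 (*Osbp* in E15.10) to 0.664 (*Gltpd2* in E6.43), and the peptidases from 0.369 (*Prcp* in E15.10) to 0.635 (*Dpp10* in E6.2).

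The share of all autosomal counts taken by a member was compared between libraries, as a description. In E6.43 over E6.2, the ratio was 1.27 for *Apba3*, 1.02 for *Kdm8*, 0.743 for *Aldh4a1*, 1.09 for *Plekha8* and 1.05 for *Dpp7*. The 5th and 95th percentiles over 15206 genes with at least 200 counts in both were 0.810 and 1.26. *Apba3*, a GC-rich gene (61.7%), was just above the upper one, but within the range of genes of like GC content (0.900 to 1.33). *Aldh4a1* was below the lower one, and farther below that of genes of like GC content (0.887), at 0.665 of their median. Its 122 counts in E6.43 are under the minimum of these ranges, and with spaced SNPs its ratio was 0.856. The AI of *Aldh4a1* in that library was 0.549.

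In E15.10 over E6.2 the percentiles over all genes were 0.40 and 2.26, and the median ratio of genes of like GC content ran from 0.668 for *Plekha8* to 2.12 for *Apba3*. The members ran from 0.943 (*Plekha8*) to 2.10 (*Apba3*), and each lay within the range of genes of like GC content. *Kdm8* was nearest to its edge, at 1.21 with a 5th percentile of 1.17, and at 0.651 of the median of genes of like GC content. In E15.10 over E6.43, *Aldh4a1* was at 2.27, above the 95th percentile of all genes (2.0) and within the range of genes of like GC content (1.11 to 2.44). This ratio rests on the same 122 counts of E6.43, under the minimum of these ranges. With spaced SNPs it was 1.74, below that 95th percentile. The other members, from 0.866 (*Plekha8*) to 1.65 (*Apba3*), were within both ranges. Among them, *Kdm8* was at 0.703 of the median of genes of like GC content. The ranges of like GC content were added after the data were seen.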

How the data were processed

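The authors sequenced captured exons (Agilent SureSelect Mouse All ExonV6) and deposited, per gene, maternal (B6) and paternal (CAST) allelic counts with each SNP's position and counts, without normalization. Per the labels, processing notes name GRCm38/mm10, cutadapt 1.14, Trim Galore, STAR 2.5.4a, SAMtools and GATK; settings for the exome reads and the treatment of duplicate reads are not given in the sources used here. Alignment in favour of the reference raises AI. The deposited series table gives counts, the fraction AI with interval limits, a p-value and a call (another kind of value, true or false) for genes with at least 90 counts; its deposited counts were an alternative and differed from the library files in 0 genes, and the authors' p-value and calls were not used. The number of columns used without a library of their own was 0.

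The maternal share, AI, was taken from counts summed over SNPs. Gene counts equalled their SNP sums in all 30212 genes. Names, exons and coordinates came from GENCODE release M21 (29309 genes found), sequence from the GRCm38 reference, and exon numbers from the principal transcript of each gene. Tests were two-sided exact binomial tests against the median spaced AI of the library (0.534 for E6.2, 0.535 for E6.43, 0.533 for E15.10) and Fisher's exact tests, in scipy 1.17.1, over autosomal genes with at least 10 spaced counts, with Benjamini-Hochberg adjustment; a call is an adjusted p under 0.05. They were tested on simulated data. Overdispersion was estimated from genes with at least 50 spaced counts. The share of cells without a copy was computed from an interval bound, with all other cells at the median AI. It takes the loss as a deletion that leaves the other parent's copy unchanged. Alternatives were all SNPs, 600 bp spacing, other count minimums, overdispersion, 0.5 as the reference, exonic or coding SNPs, other limits, and GC content within 1 percentage point, in windows reaching 150 bp to either side of a SNP. The members and gene lists were chosen with earlier results of these data known. Named by rule were the 5 genes, their best covered SNPs and SNPs outside 0.25 to 0.75, and the lowest, highest and LOH-range genes among neighbours and families; other SNPs and exons, and values of a named neighbour in other libraries, were chosen after their values were seen.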

Additional observations from a re-analysis of the deposited data

How the results depend on the processing

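With 1 library per animal, no replicate could be left out. No paired analysis was possible because the groups share only 1 replicate number, with 1 library per group. The 0 of 5 genes in the LOH range held in all 3 libraries with limits of 0.3 and 0.7 or 0.4 and 0.6, with at least 90 counts and with spaced SNPs. The study's LOH filter had set the reported 0, and the higher count minimum left out none of the 5 genes. Only the narrower limits and the spaced SNPs could have changed it. Of 195 values recomputed under an alternative, 165 stayed within the counting interval of the reported value or, for counts, within 1.5 times it, 30 moved, and 0 reversed. The 165 include alternatives that rest on the same counts. SNPs in annotated exons and the counts of the series table gave the reported AI of every gene and library again. AI in E6.2 moved to 0.442 for *Aldh4a1* without its best covered SNP. As the median of SNPs with at least 20 counts, AI was 0.593 (E6.2) and 0.619 (E15.10) for *Aldh4a1*, 0.475 for *Plekha8* in E6.2 and 0.6 for *Dpp7* in E6.43. An alternative added after the data were seen, without the exon 7 SNPs, gave 0.437 for *Plekha8* in E6.2, and coding SNPs alone, also added, moved no value. Genes away from the library median in E6.2 numbered 2 with summed counts and 0 with SNPs at least 600 bp apart, with overdispersion and against 0.5. Summed counts gave each clone 1, and against 0.5 there was 1 in E15.10, *Dpp7* (exact binomial test, adjusted p = 0.0201). Summed counts also called 1 gene between E15.10 and E6.2. Over all autosomal genes, summed counts raised the genes away from the median from 3977 to 7864 in E6.2, from 3437 to 7097 in E6.43 and from 2841 to 6628 in E15.10, and overdispersion lowered them to 1462, 1350 and 948. Between E6.43 and E6.2 the genes called were 146 with spaced SNPs, 3074 with summed counts and 0 with overdispersion. Against 0.5 in place of the median the counts were 7193, 5756 and 4370. Between E15.10 and E6.2 they were 1022 with spaced SNPs, 4114 summed and 253 with overdispersion, and between E15.10 and E6.43 they were 1022, 4072 and 253. With at least 10 counts, 1 SNP of the 5 genes was outside 0.25 to 0.75 in E15.10, and 1 gene next to *Apba3* and 1 next to *Aldh4a1* was in the LOH range in E6.43. The cause of these changes was not tested, except that summed counts count a read pair at several SNPs. Ratios of depth moved beyond counting error in 13 of 30 alternatives, 11 of them by GC content. Depth limits *Aldh4a1* and *Plekha8* most, with 98 and 111 spaced counts at the lowest.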
